A study of Mus musculus with 4 samples.

Results

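The miR-125 family was followed in the exosome fraction of differentiating 3T3-L1 cells, through miR-125a-5p, miR-125b-5p and miR-125a-3p. The members were chosen by name, as mmu-miR-125a-5p, mmu-miR-125b-5p and mmu-miR-125a-3p among the non-control probes of the arrays, and are 3 of the 1881 miRNAs measured. 3T3-L1 is a clonal preadipocyte line from mouse embryo cultures, which turns into lipid-storing adipocytes after hormonal induction. The cells were kept for 3 days in low-glucose growth medium without inducers, then for 2 days in high-glucose medium with insulin at 10 µg/ml, dexamethasone at 6.4 nM and the phosphodiesterase inhibitor 1-methyl-3-isobutylxanthine at 0.5 mM, and from then on with insulin alone at the same dose. All media held 10% fetal bovine serum depleted of exosomes, with penicillin and streptomycin. D0 stands for medium collected at the switch to the induction medium, before any inducer, although the labels call all samples adipocytes, and D4, D12 and D16 stand for medium collected 4, 12 and 16 days later. Vesicles were pelleted from the medium by ultracentrifugation, and their RNA was read on single-colour arrays, with 1 array for each day. Each array received material mixed from independent experiments, which the sample labels number 3 and the methods fewer, so an array is a pool and no replicate of a day was measured. On the arrays the differences between days therefore have no replicate check, and the errors given are those the scanner software calculates within an array. For miR-125b-5p the paper reports a higher level at D12 than at D0 by quantitative PCR of exosome fractions and of the cells, which was not used here. The paper also lists array ratios to D0, which at D12 are lower for each member than the unscaled ratios given below.

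MicroRNAs are short RNAs cut from a hairpin precursor, which can leave a mature strand from its 5p arm, from its 3p arm, or from both. The seed, bases 2 to 8 from the 5′ end, largely sets which messenger RNAs a miRNA pairs with. The miR-125 family descends from lin-4, the founding miRNA of the nematode, and its 5p strands are usually the abundant ones. In mammals its genes lie beside miR-99 and let-7 genes in related clusters, and miR-125b-5p is known from studies of haematopoiesis, of cell proliferation and of adipocyte differentiation.

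The mature 5p strands are shown first because miR-125a-5p and miR-125b-5p share their seed, given in capitals. Sequences were taken from RefSeq on GRCm38.p6, and all 3 members were matched by name.
miR-125a-5p: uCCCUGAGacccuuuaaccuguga
miR-125b-5p: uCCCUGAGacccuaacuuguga
miR-351-5p: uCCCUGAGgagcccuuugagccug
The strands of miR-125a-5p and miR-125b-5p had their first 13 and last 5 bases in common, and an alignment placed identical bases in 21 of 24 columns. Binding of either strand to the probes for the other was not tested, and the probe sequences were not used here. Of 1679 mature mouse miRNAs in the RefSeq table, 5 carried this seed. Besides the members and miR-351-5p these were miR-6367 and miR-6394, neither of which was detected on any array.

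The 3p strands are shown because miR-125a-3p behaved apart from the 5p strand of the same hairpin. Their seeds, again in capitals, differ from one another.
miR-125a-3p: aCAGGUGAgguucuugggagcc
miR-125b-1-3p: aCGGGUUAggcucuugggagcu
miR-125b-2-3p: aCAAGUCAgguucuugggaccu
The strand of miR-125a-3p was identical to each of the other strands at 18 of 22 positions, and no other mature miRNA of the table carried its seed. Both arms of miR-125a come from 1 hairpin of 68 bases on the plus strand at chr17:17830812-17830879, printed with the mature strands in capitals.
Mir125a hairpin: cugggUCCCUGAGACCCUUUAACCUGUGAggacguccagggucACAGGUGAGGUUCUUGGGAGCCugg
The gene lies within the span of Spaca6 in the RefSeq annotation. Mature miR-125b-5p has 2 source genes, so its array signal cannot be divided between them. They are Mir125b-1 on the plus strand of chromosome 9, with the mature strand at chr9:41581940-41581961, inside the long non-coding RNA gene Mir100hg, and Mir125b-2 on the plus strand of chromosome 16, at chr16:77646279-77646300.

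The level of a miRNA is given as its total gene signal, in arbitrary units of brightness. It is the sum over those probes of the miRNA whose signal exceeded 3 times their error, so the probes that enter the sum can change from day to day. A rule of this form gave the software's detection call in 7524 of 7524 cases. All 3 members were detected on all 4 arrays. Levels of different miRNAs rest on different probes and are not compared as amounts.

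At D0 the signal of miR-125a-5p was 6.28 ± 1.04 (technical error), followed by 41.8 ± 3.84 at D4, by 25.0 ± 2.62 at D12 and lastly by 15.1 ± 1.76 at D16. It was thus lowest before induction, highest at D4, and lower again on each later array. Unscaled, each step in this order exceeded the combined technical error of the days it separates, by 3.62 times from D4 to D12, by 3.14 times from D12 to D16 and by 4.29 times from D16 to D0. Scaled by the 75th percentile, the log2 ratios D16/D12 (-0.19 ± 0.23) and D16/D0 (0.08 ± 0.29) were within the error, so these steps depend on the brightness of the arrays.

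At D0 the signal of miR-125b-5p was 31.9 ± 3.39, followed by 207 ± 19.5 at D4, by 289 ± 27.4 at D12 and lastly by 198 ± 18.7 at D16. Its highest unscaled value came at D12, not at D4. Scaled by the 75th percentile, the log2 ratio D16/D12 was -0.01 ± 0.19, within the error. The gap between D12 and D4 was 2.45 times its technical error, whereas the unscaled signals of D4 and D16 differed by only 0.334 times theirs. Scaled, D16 lay above D4, with log2 ratios to D0 of 1.46 against 0.61 by the 75th percentile and of 2.29 against 1.83 by the spike-ins.

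At D0 the signal of miR-125a-3p was 9.16 ± 0.947, followed by 22.7 ± 1.65 at D4, by 1.66 ± 0.538 at D12 and lastly by 2.75 ± 0.610 at D16. Unscaled, it was highest at D4 like the 5p strand of its hairpin, and its late values lay below the D0 value. By the 75th percentile, the 90th percentile and quantiles D0 was its highest day, with log2 ratios D4/D0 of -0.78, -0.25 and -0.15, while the 5p strand stayed above D0. Summed over all 4 of its probes, whether or not they passed the threshold, the signal was 9.16 ± 0.947, 22.7 ± 1.65, 5.78 ± 1.14 and 5.12 ± 0.915 in the order of the days. The D0 and D4 sums are the same as before because all 4 probes passed on those days, and the late values are 5.78 and 5.12 instead of 1.66 and 2.75. D12 and D16 then differed by 0.454 times their technical error.

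**Figure D1:**
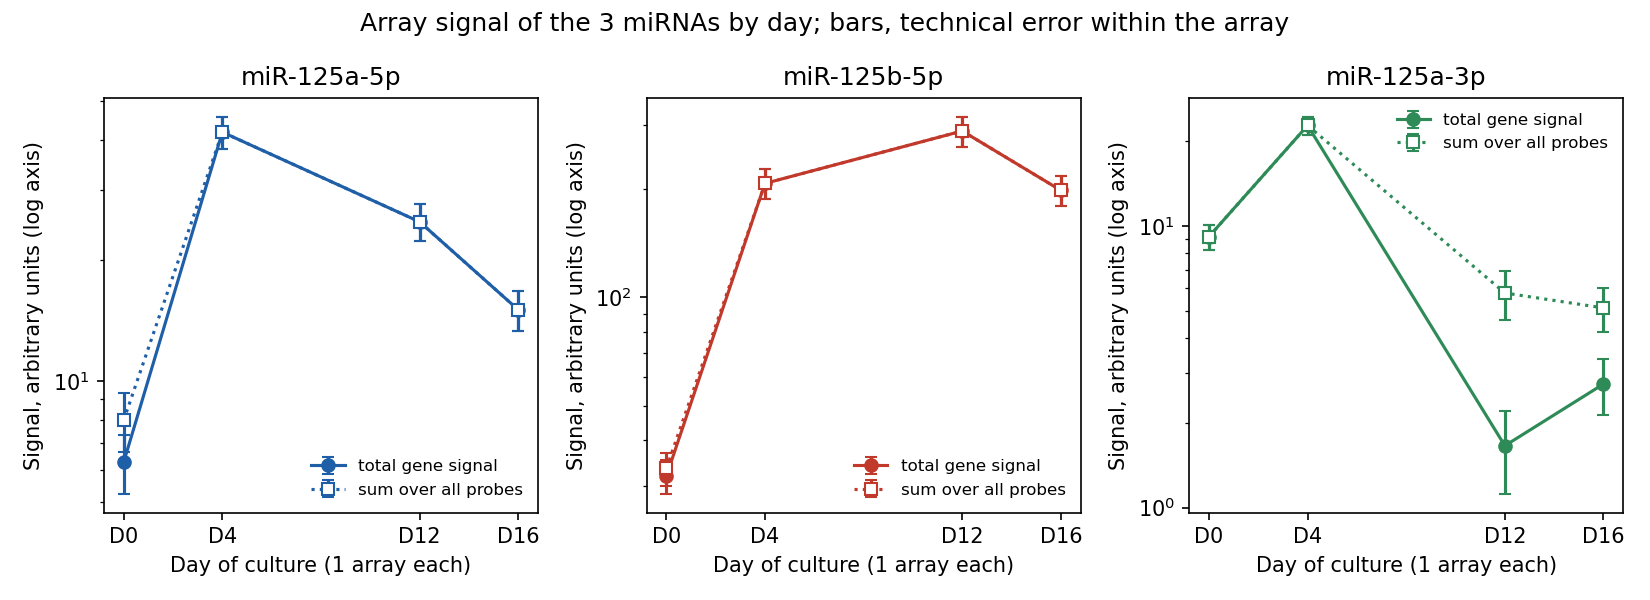
Signal of miR-125a-5p, miR-125b-5p and miR-125a-3p (arbitrary units, log axis) against the day of culture, with filled circles for the total gene signal, open squares for the sum over all probes, and bars for the technical error within the array. miR-125a-5p is highest at D4 (41.8) and miR-125b-5p at D12 (289), while for miR-125a-3p the measures part at D12 (1.66 against 5.78).

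The arrays were not scaled to each other, and they differed in overall brightness. Among the 283 miRNAs detected on all 4 arrays the D4 array was brighter than the D0 array by a median ratio of 2.59, the D12 array by 1.99 and the D16 array by 1.32. A spike-in control, the mean log2 signal of 4 RNAs added to every sample, gave ratios of 1.82, 1.72 and 1.27. Ratios of the members are therefore given beside the median change and by their place among these 283 miRNAs, where a factor common to an array cancels. An amount of RNA per vesicle and a number of vesicles cannot be told apart in these signals.

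From D0 to D4 the unscaled log2 ratio was 2.73 ± 0.27 for miR-125a-5p, 2.70 ± 0.21 for miR-125b-5p and 1.31 ± 0.18 for miR-125a-3p, with a median of 1.37 over the 283 miRNAs. All 3 members passed a ratio of 2, as did 62.1% of the 317 miRNAs detected on both days, and none was below 0.5, as 0.315% were. Measured against the median, the 5p strands rose by 1.36 and 1.33, and 86.9% and 86.2% of the 283 miRNAs had a lower ratio. The 3p strand moved with the median, and 47.7% had a lower ratio. Its direction depended on the scaling, and by the spike-ins its log2 ratio was 0.44. The 5p strands stayed above 0 in each scaling, but by the 75th percentile they were no longer past 2-fold (0.64 and 0.61), nor was miR-125b-5p by quantiles (0.70).

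From D0 to D12 the log2 ratio was 1.99 ± 0.28 for miR-125a-5p, a fold of 3.98, and 3.18 ± 0.21 for miR-125b-5p, a fold of 9.07. Both were above a ratio of 2, beside 47.8% of the 297 miRNAs measured at D0 as well as D12. For miR-125b-5p 93.6% of the 283 miRNAs had a lower ratio, and for miR-125a-5p 79.2%, with a median log2 ratio of 1.00. The rise of miR-125b-5p thus stood further above the common change than that of miR-125a-5p. After scaling by the 75th percentile, by the 90th percentile or by quantiles the fold of miR-125a-5p was 1.21, 1.71 and 1.77. It was no longer above 2, and by the 75th percentile its log2 ratio of 0.27 ± 0.28 was within the error. The fold of miR-125b-5p was 2.76, 3.91 and 3.23 in the same order.

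The log2 ratio of miR-125a-3p from D0 to D12 was -2.47 ± 0.49, a ratio of 0.181, and no other miRNA of the 283 had a lower one. It was below 0.5, which 3.37% of the 297 miRNAs were. The size of this fall rests on which probes were summed. Over all 4 probes the unscaled log2 ratio was -0.67 ± 0.32, a ratio of 0.630, which is not past 0.5. The D12 array was brighter than the D0 array, by a ratio of 1.72 with the spike-ins. Dividing by that brightness would lower the ratio, and its scaled size was not computed. By normexp, another background correction, the log2 ratio was -0.20, over the 1 probe detected on both days. Normexp was run with an added offset of 50, above every spot signal of that probe at D0 (at most 30.8). The offset pulls the ratio towards 0, so the normexp value cannot test the size of the fall. Among 333 miRNAs whose sum over all probes exceeded 3 times its error on every array, 12 had a lower log2 ratio and the median was 0.88, so the strand still lay near the bottom of the distribution.

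**Figure D2:**
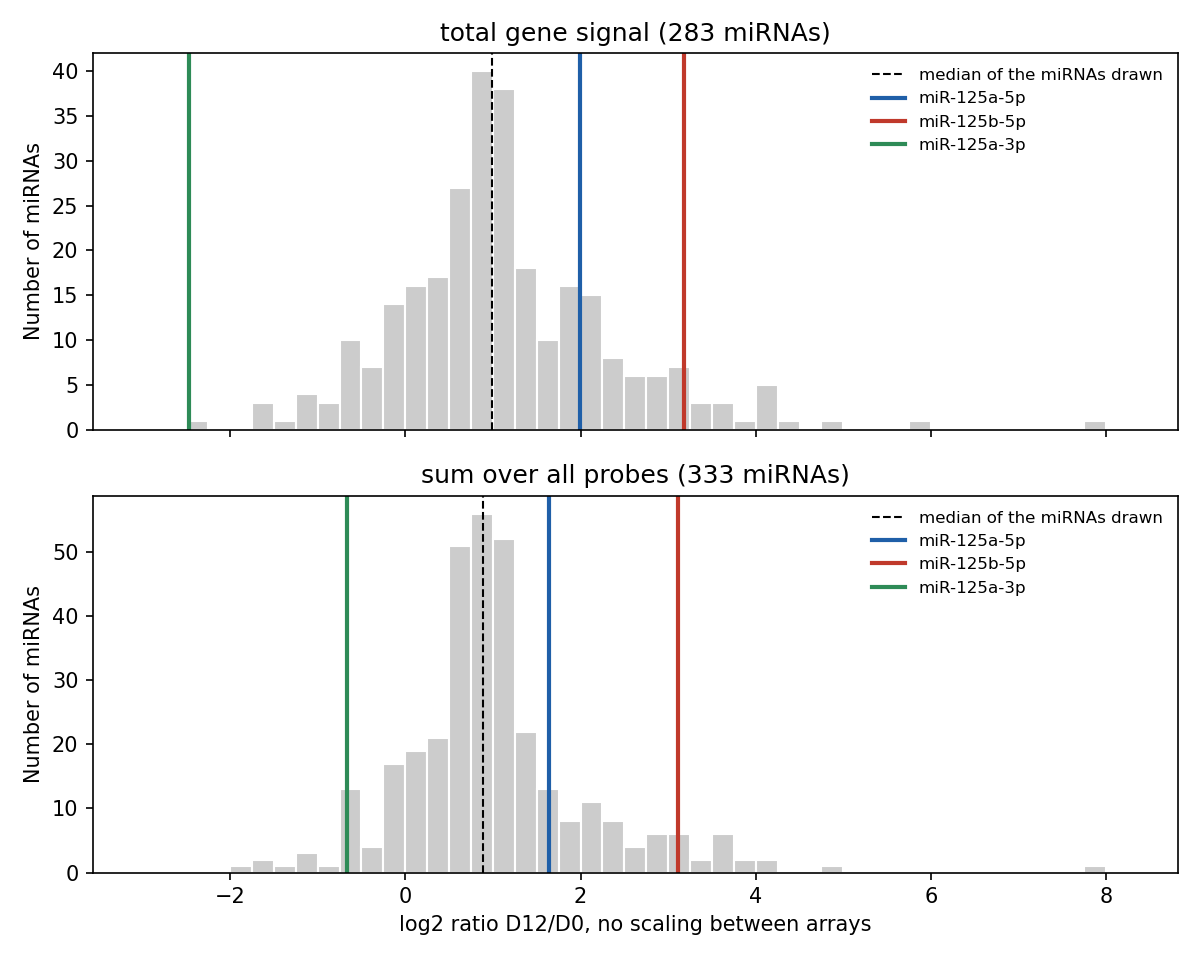
Distribution of unscaled log2 ratios D12/D0 over miRNAs, for the total gene signal (upper panel, 283 miRNAs) and for the sum over all probes (lower panel, 333 miRNAs), with coloured lines at the members and a dashed line at the median (1.00 and 0.88). miR-125a-3p moves from -2.47 to -0.67, and miR-125b-5p stays high at 3.18 and 3.11.

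How far calls at D12 fall on the high or the low side depends on brightness. Without scaling 142 miRNAs were above 2 and 10 below 0.5, so that 93.4% of calls were high. This share was 67.9% with the spike-ins, 41.3% with the 90th percentile, 33.0% with quantiles and 20.8% with the 75th percentile. Across these settings miR-125b-5p remained above 2 and the total gene signal of miR-125a-3p below 0.5.

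From D0 to D16 the log2 ratio was 1.26 ± 0.29 for miR-125a-5p, 2.63 ± 0.21 for miR-125b-5p and -1.74 ± 0.35 for miR-125a-3p. The 5p strands were above 2, as were 31.1% of 289 miRNAs, and the 3p strand was below 0.5, as were 9.34%. With all probes summed and no scaling, miR-125a-5p had 0.92 and miR-125a-3p -0.84, neither past the fold, and miR-125b-5p had 2.56. Scaled in the 4 ways, miR-125a-5p lay between 0.08 and 0.91 at D16 and miR-125b-5p between 1.46 and 2.29, so only the latter stayed above 2-fold.

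Between D4 and D12 the paralogs parted. The log2 ratio D12/D4 was -0.74 ± 0.20 for miR-125a-5p and 0.48 ± 0.19 for miR-125b-5p, around a median of -0.25. Of the 283 miRNAs, 19.4% had a lower ratio than miR-125a-5p and 94.7% a lower one than miR-125b-5p. The signs were the same without scaling and under the 4 scalings tried. Neither passed a fold threshold, which 4.81% of 374 miRNAs passed upwards and 15% downwards. miR-125a-3p was below 0.5 with a log2 ratio of -3.78 ± 0.48, and with all probes it was -1.98 ± 0.30. By normexp it was -0.50, over the 1 probe detected on both days. The normexp offset of 50 exceeds the median spot signals of that probe, 41.1 at D4 and 13.6 at D12. It pulls the ratio towards 0, so the normexp value cannot decide whether the fold was passed.

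From D12 to D16 no member passed, without scaling, a fold of 2 or 0.5, as 0% and 7.28% of 371 miRNAs did. The log2 ratios were -0.73 ± 0.23 for miR-125a-5p and -0.55 ± 0.19 for miR-125b-5p beside a median of -0.53, and relative to the median -0.20 and -0.02, both within the error. The unscaled fall of miR-125b-5p was thus close to that of the median miRNA, and with quantiles its log2 ratio was 0.04. For miR-125a-3p the ratio was 0.73 ± 0.57 with the probes detected on each day and -0.18 ± 0.38 with all probes, so its sign depended on the probes summed. The former was above the ratio of 281 of the 283 miRNAs, and it passed 2-fold when scaled by the 75th percentile (log2 ratio 1.27), the 90th percentile (1.27) or the spike-ins (1.16).

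The paralogs were compared by the difference of their log2 ratios, in which the brightness of an array cancels. The difference of miR-125b-5p minus miR-125a-5p was -0.04 ± 0.34 from D0 to D4, 1.19 ± 0.35 from D0 to D12 and 1.37 ± 0.36 from D0 to D16. At D4 the difference was within its error, and it changed sign with the processing, with -0.67 by quantiles, 0.24 over all probes, 0.65 over spots at the same position and 0.89 by normexp. From D4 to D12 it was 1.23 ± 0.28, and from D12 to D16 0.18 ± 0.30. Most of the unscaled gain of miR-125b-5p on miR-125a-5p thus lay between D4 and D12. By normexp that step was 0.79 and no larger than the one before it. The normexp offset of 50 exceeds the median D0 spot of the brighter miR-125a-5p probe (28.0) and not that of miR-125b-5p (166). It shrinks the ratios of miR-125a-5p more, so the normexp values cannot decide when the gain occurred. With all probes summed, the difference from D0 to D12 was 1.47 ± 0.35.

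The arms of the Mir125a hairpin were compared in the same way. The difference of miR-125a-5p minus miR-125a-3p was 1.43 ± 0.33 from D0 to D4, 4.46 ± 0.57 from D0 to D12 and 3.00 ± 0.46 from D0 to D16. At every later day the 5p arm had gained on the 3p arm since D0. With all probes summed the differences were 1.08 ± 0.33, 2.31 ± 0.43 and 1.76 ± 0.42, so the direction held and the sizes did not. By normexp they were 0.68, 0.78 and 0.52. The normexp offset of 50 exceeds every D0 spot of both arms, at most 43.3 for the 5p strand and 30.8 for the 3p strand. It pulls the ratios of both arms towards 0, so these values are no separate check of the sizes. At D12 and D16 no spot of the 3p strand was well above background, so the late differences give a direction and no firm fold. A change in the ratio of the arms shows that they changed unequally, and not that one of them was constant.

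The values of single probes lie behind these sums. miR-125a-5p and miR-125b-5p were each read by 2 probes of 15 spots. From D0 to D16 the brighter probe of miR-125a-5p gave 6.28, 33.4, 20.6 and 12.1, and the dimmer one 1.71, 8.34, 4.33 and 2.96. Both probes put the days in the same order, but the dimmer one missed its threshold of 2.51 at D0 and was not counted there. Over the brighter probe alone the log2 ratio D12/D0 was 1.72 ± 0.29.

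In the same order of days the brighter probe of miR-125b-5p gave 31.9, 194, 272 and 185, and the dimmer one 1.62, 12.7, 16.9 and 12.5. Both had their highest value at D12. The dimmer probe was again not counted at D0, where its threshold was 2.51, and over the brighter one alone the log2 ratio D12/D0 was 3.09 ± 0.21.

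miR-125a-3p was read by 4 probes of 7 or 8 spots. At D0 they gave 3.00, 2.07, 1.70 and 2.38, and at D4 6.29, 6.03, 4.95 and 5.45, and all 4 were counted on both days. At D12 they gave 1.33, 1.64, 1.15 and 1.66, of which only the last passed its threshold, which was 1.61. At D16 they gave 1.34, 1.03, 1.31 and 1.44, and the last 2 were counted, with thresholds of 1.29 and 1.30. Each of the 4 probes was thus higher at D4 and lower at D12 and D16 than at D0, while the drop of the total also holds the loss of 3 probes from the sum. For the probe counted on both D0 and D12 the log2 ratio was -0.52 ± 0.54, within its error. No spot of these probes was well above background at D12 or D16, so the late level is close to the limit of measurement.

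**Figure D3:**
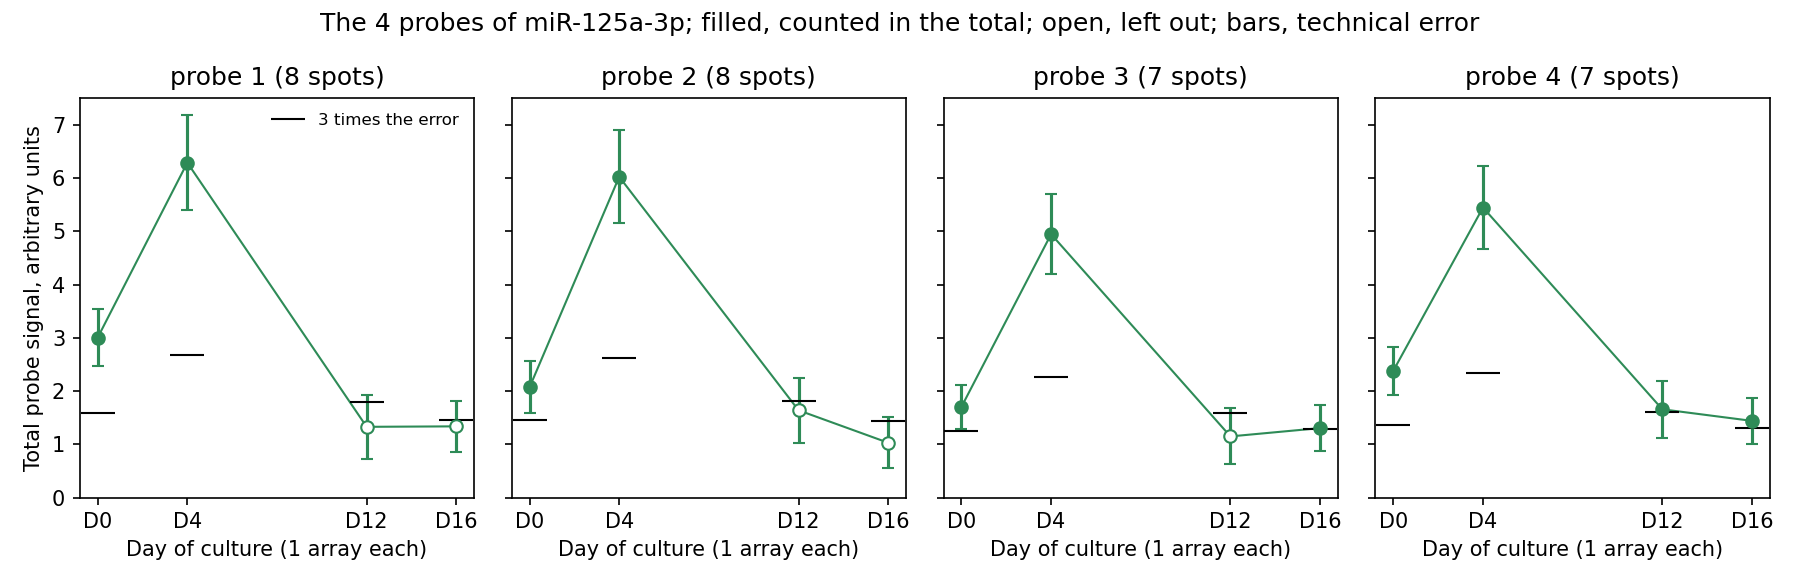
Total probe signal (arbitrary units) of the 4 probes of miR-125a-3p against the day of culture, with filled points counted in the total gene signal, open points left out of it, bars for the technical error and black dashes at 3 times the error, the threshold for counting. All 4 probes are highest at D4, and at D12 only the last one (1.66) lies above its threshold (1.61).

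Single spots give a view in which no probe drops out. The same 30 positions carry the spots of a miRNA on each array, and spots were compared at the same position. For miR-125a-5p 29 of 30 spots were brighter at D12 than at D0, with a median log2 ratio of 1.15 (quartiles 0.74 and 1.55). For miR-125b-5p 30 of 30 were brighter, with a median of 2.95 (quartiles 2.51 and 3.25). For miR-125a-3p 28 of 30 were dimmer, with a median of -1.02 (quartiles -1.36 and -0.74). The spots of a miRNA share 1 labelled sample, so they show the evenness of an array and not the spread between cultures. These medians are lower than the log2 ratios of the sums over all probes partly by construction, since the software multiplies a probe's signal by an effective spot size, 0.6 at D0 and 0.760 at D12.

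From D4 to D12, 30 of 30 spots of miR-125a-5p were dimmer and 29 of 30 spots of miR-125b-5p were brighter, with medians of -0.78 and 0.48. All 30 spots of miR-125a-3p were dimmer, with a median of -1.93. The parting of the paralogs was thus present in nearly every spot.

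The D0 array, the denominator of most ratios, was uneven. Replicate spots varied by a median coefficient of 21.1% on the D0 array, against 7.19%, 7.78% and 8.07% on the arrays of D4, D12 and D16. For the brighter probe of miR-125b-5p the median spot signal at D0 was 110 over 7 spots in the left side of the array and 188 over 8 spots in the right side, whereas at D4 it was 700 and 697. With spots of the left side alone the log2 ratio D12/D0 of miR-125b-5p was 3.63, and with those of the right side 2.87. That of miR-125a-5p was 2.22 and 1.51, and that of miR-125a-3p -2.19 and -2.78. The differences between members moved little, with 1.41 and 1.36 for miR-125b-5p minus miR-125a-5p.

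**Figure D4:**
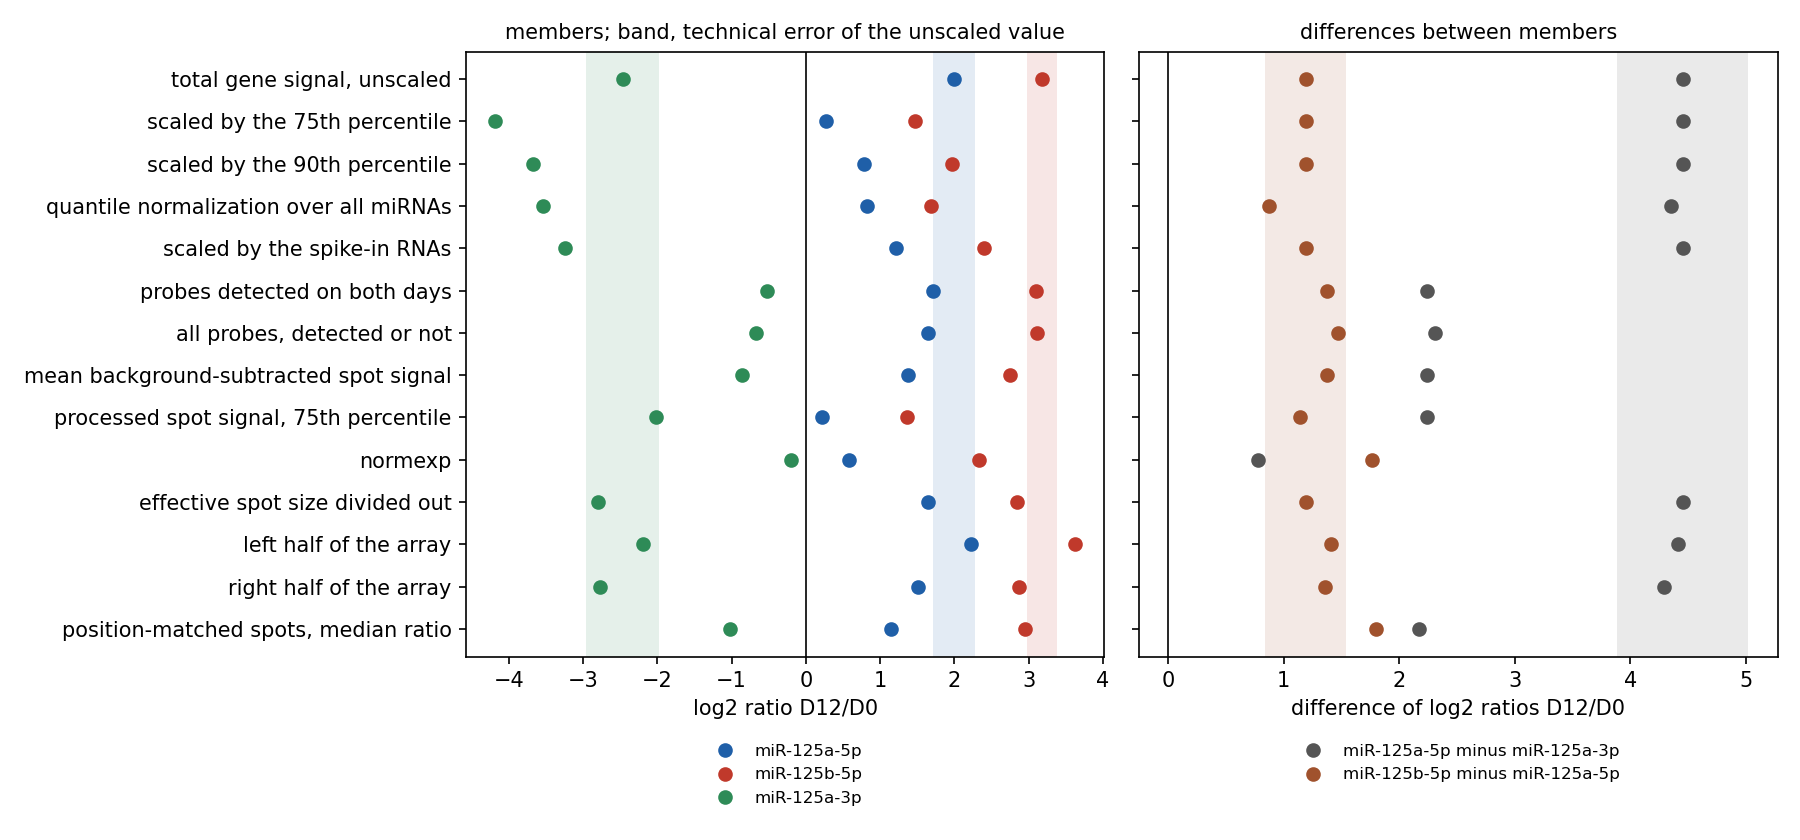
Log2 ratios D12/D0 of the 3 members (left panel) and differences between members (right panel) under each way of processing, named on the vertical axis, with bands for the technical error of the unscaled value. miR-125b-5p stays above 0 throughout (1.36 to 3.63) and miR-125a-3p below 0 (-4.18 to -0.20), and the difference of miR-125b-5p minus miR-125a-5p lies between 0.87 and 1.80.

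Other strands of the family were near or below detection. miR-125b-1-3p, miR-125b-2-3p and miR-351-3p were not detected on any array. miR-351-5p, which has the miR-125 seed, had a signal of 2.46 at D4 and 1.63 at D12 and was not detected at D0 or D16. A 3p strand was thus measured for miR-125a and for neither miR-125b hairpin.

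The neighbours of the miR-125 genes were followed next, because in each cluster a miR-99 or miR-100 gene and a let-7 gene lie beside the miR-125 gene. In the RefSeq annotation the nearest miRNA genes at lower coordinates were Mir99b and Mirlet7e for Mir125a, Mir100 and Mirlet7a-2 for Mir125b-1, and Mir99a and Mirlet7c-1 for Mir125b-2. Mature let-7a-5p and let-7c-5p also come from genes outside these clusters. Binding of near-identical let-7 strands to each other's probes was not tested.

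In the Mir125a cluster miR-99b-5p gave signals of 4.12, 36.9, 17.2 and 11.8 from D0 to D16, and let-7e-5p gave 20.6, 125, 94.0 and 58.2. Both had their highest value at D4, as miR-125a-5p did. Their log2 ratios D12/D4 were -1.10 ± 0.21 and -0.41 ± 0.15, and relative to the median -0.85 and -0.17, so let-7e-5p lay close to the median. Under the 4 scalings miR-99b-5p was lower at D12 than at D4 in each, and let-7e-5p was lower in 3 and equal after quantile normalization.

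In the clusters of the miR-125b genes the highest unscaled value came at D12. Scaled by the 75th percentile, the log2 ratios D16/D12 were -0.05 for miR-100-5p and let-7a-5p, -0.13 for miR-99a-5p and -0.11 for let-7c-5p. Each was within its error, so the order of D12 and D16 depended on the brightness of the arrays. miR-100-5p was not detected at D0 and gave 10.7, 24.5 and 16.3 on the later days, and let-7a-5p gave 27.7, 249, 324 and 216 from D0 to D16. miR-99a-5p gave 3.00, 75.9, 174 and 109, and let-7c-5p gave 15.0, 168, 274 and 175. Their log2 ratios D12/D4 were 1.19 ± 0.27 for miR-100-5p, 0.38 ± 0.16 for let-7a-5p, 1.19 ± 0.17 for miR-99a-5p and 0.70 ± 0.16 for let-7c-5p, positive under each scaling. The 5p strands of the Mir125a cluster and those of the miR-125b clusters thus lay on opposite sides of the median change of -0.25 from D4 to D12.

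**Figure D5:**
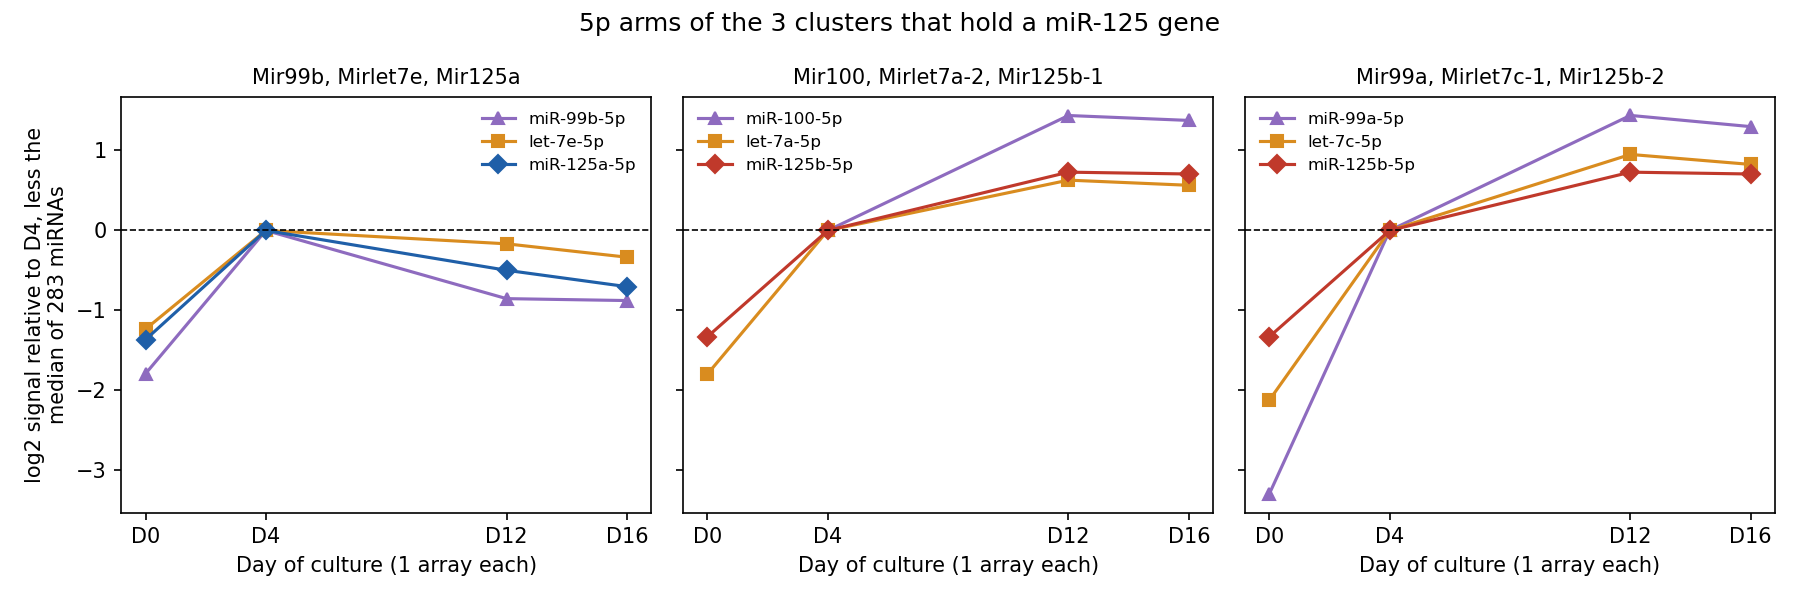
Log2 signal relative to D4, less the median of the 283 miRNAs detected on all 4 arrays (dashed line at 0), against the day of culture for the 5p strands of each cluster, with the same miR-125b-5p line in the middle and right panels and no D0 point for miR-100-5p, which was not detected. From D4 to D12 the left panel falls (miR-99b-5p by a relative log2 of -0.85) and the others rise (miR-99a-5p by 1.44).

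Of the 12 neighbour strands, 5 were detected at both D0 and D12, and each of these was above a ratio of 2, beside 47.8% of 297 miRNAs, with a median of 11.7, while the median ratio over the 283 miRNAs was 1.99. Scaled by the 75th percentile, by the 90th percentile or by quantiles, 3 of the 5 were above 2 and miR-99b-5p and let-7e-5p were not. Of the 297 miRNAs, 10.1%, 14.5% and 12.8% were above 2 under these scalings, in the same order. miR-100-5p was at least 4.97-fold higher at D12, taking 3 times the error summed over its probes at D0 as the limit. With it and miR-99b-3p at their limits the median was 4.97. Of the 3p strands, only miR-99b-3p was detected, with 1.80 at D4 and 1.85 at D12. By the software's detection call, the 3p strand of miR-125a was the only 3p strand of the clusters detected on every array, while the sum over all probes of miR-99b-3p also exceeded 3 times its error on each.

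The profile of each member over the 4 days was compared with those of the 282 other miRNAs detected on all arrays, by the root mean square difference of log2 signals centred on their own mean. Nearest to miR-125a-5p were miR-24-3p (0.11), miR-140-3p (0.12) and miR-214-3p (0.12), followed by let-7e-5p (0.15) and miR-99b-5p (0.17) of its own cluster, with a median of 0.65 over all. Its places 4 and 5 were thus held by both cluster neighbours. These 5 distances lie below the technical errors of the log2 ratios of miR-125a-5p, 0.20 to 0.29, so their order is not resolved. With all probes summed miR-99b-5p came at place 3 and let-7e-5p at place 25 of 332.

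Nearest to miR-125b-5p were miR-19b-3p (0.064), miR-96-5p (0.086) and miR-20a-5p (0.089), with a median of 0.92. Of its cluster neighbours let-7a-5p held place 10 at 0.18, let-7c-5p place 26 at 0.40 and miR-99a-5p place 192 at 1.07, beyond the median, so they were not alike in profile. miR-125a-5p, which has the same seed, held place 70 at 0.65. The nearest profile to that of miR-125b-5p with all probes summed was that of let-7f-5p (0.092). The 3 nearest distances lie below the technical errors of the log2 ratios of miR-125b-5p, 0.19 to 0.21, so their order is not resolved.

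Nearest to miR-125a-3p were miR-6898-5p (0.47), miR-2137 (0.53) and miR-7118-5p (0.58), which are all farther away than the neighbours of the 5p strands. With all probes summed they were miR-6385 (0.079), miR-6898-5p (0.15) and miR-7218-5p (0.16). The 5p strand of its own hairpin held place 204 of 282, and place 241 of 332 with all probes.

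The arrays hold no protein-coding marker of adipocytes, so a list of 12 miRNAs described in adipogenesis was set beside the family. Its summed signal was 49.5, 402, 477 and 356 from D0 to D16. At D12 6 of them were also detected at D0, and each of the 6 was above a ratio of 2, beside 47.8% of 297 miRNAs, with a median of 11.6 beside 1.99 over the 283 miRNAs. Scaled by the 75th percentile 4 of the 6 were above 2, without miR-27a-3p and miR-34a-5p, and under each of the other scalings 5 were, without miR-27a-3p. Among the 297 miRNAs the share above 2 was 10.1% by the 75th percentile, 14.5% by the 90th percentile, 12.8% by quantiles and 24.2% by the spike-ins. With 5 more that were not detected at D0 taken at their limits, the median was 5.69. miR-103-3p, whose host genes encode pantothenate kinases, had a fold of 17.5, and miR-27a-3p, known as a brake on adipocyte differentiation, a fold of 3.44. miR-145a-5p was not detected on any array. miR-125b-5p with 9.07 and miR-125a-5p with 3.98 lay within this range.

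miRNAs of other cell types moved over the same days. The summed signal of the red blood cell list, of which 3 of 4 miRNAs are on the array, was 9.40, 468, 2524 and 1649 from D0 to D16. At D0 it came from miR-451a alone, since miR-144-3p and miR-486a-5p were not detected then. From D0 to D16 miR-451a itself gave 9.40, 443, 2400 and 1559. The summed signal of the leukocyte list was 0, 16.9, 85.6 and 59.3, with 3 of 4 miRNAs detected at D12 and miR-150-5p not detected on any array. On the 3 later arrays miR-223-3p gave 16.9, 69.6 and 47.6. The liver miRNA miR-122-5p was not detected at D0 or D4 and gave signals of 6.26 and 4.13 on the later arrays, below its limit of 7.22 at D4, so no order of D4 and D12 was measured. None of the 3 striated muscle miRNAs, miR-1a-3p, miR-133a-3p and miR-206-3p, was detected on any array. Unscaled, the red blood cell and leukocyte signals were highest at D12, as was miR-125b-5p. Relative to the median, the log2 ratios D16/D12 of their detected miRNAs lay between -0.14 (miR-486a-5p) and 0.08 (miR-142a-5p). That of miR-125b-5p was -0.02. Each was within its error, so the order of D12 and D16 depended on the brightness of the arrays. The part of the red blood cell, leukocyte and liver miRNAs in the values of miR-125b-5p was not tested.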

How the data were processed

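The authors deposited the output of Agilent Feature Extraction 11.0.1.1 for 4 arrays as intensity values, made after subtraction of local background and a spatial trend, and not scaled from array to array. The deposited total gene signal was checked to be the sum over probes above 3 times their error, within 0.1%, in 1541 of 1541 cases. Undetected miRNAs carry a placeholder of 0.1, which entered only quantile normalization, run over all miRNAs. The technical error of a signal had a median of 13.2%, 11.1%, 11.6% and 11.8% over detected miRNAs from D0 to D16. The number of arrays limits the precision.

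Log2 ratios and their propagated errors, places among miRNAs and profile distances were computed with Python 3.11.15, numpy 2.4.6 and pandas 2.3.3, and alignments with biopython 1.88. A ratio above 2 or below 0.5 was counted as a call, with no test, since each day has 1 array. Steps run across all miRNAs were tested on simulated data. The members and lists were chosen with earlier results of these data known. Named are the members, lists of other strands and same-seed miRNAs, of cluster neighbours, of adipogenesis and of other cell types, and the 3 nearest profiles of each member. miR-6367, miR-6394, and the places of neighbours in the profile order were added after their values were seen.

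Alternatives were 4 scalings (75th percentile, 90th percentile, quantiles, spike-ins), other sets of probes, spot signals, the effective spot size, the left and right sides of the array, and normexp correction with an offset of 50 in limma 3.58.1 and R 4.3.3, on the median pixel signal of each spot because its mean pixel signal is not in the files used.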

Additional observations from a re-analysis of the deposited data

How the results depend on the processing

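From D0 to D12 the direction of each member and of both differences between members held under every alternative run. There were 13 for each and 14 for miR-125a-3p. In the differences, scaling by the percentiles or the spike-ins and a common spot size cancel, so these could not change them. For miR-125a-5p the 75th percentile (0.27) and processed spot signals (0.22) gave values within the technical error of 0.28. For miR-125a-3p normexp (-0.20) did so, with an error of 0.49. The sizes moved beyond the technical error as follows, on the log2 scale. For miR-125a-5p (1.99 unscaled), scaling gave 0.27 by the 75th percentile, 0.78 by the 90th percentile, 0.82 by quantiles and 1.21 by the spike-ins. All probes gave 1.64, the mean over spots of the background-subtracted signal 1.38, processed spot signals scaled by the 75th percentile 0.22, normexp 0.57, a common spot size 1.65 and the right side of the array 1.51. For miR-125b-5p (3.18), the same scalings gave 1.46, 1.97, 1.69 and 2.40. The mean over spots gave 2.75, scaled processed spot signals 1.36, normexp 2.34, a common spot size 2.84, the left side 3.63 and the right side 2.87. For miR-125a-3p (-2.47), the scalings gave -4.18, -3.68, -3.54 and -3.25. Probes detected on both days gave -0.52, all probes -0.67, the mean over spots -0.86 and normexp -0.20. The mean over spots, processed spot signals and normexp used probes detected on both days. The weaker values of the first pair follow from the sum no longer losing 3 probes at D12. The normexp offset of 50 pulls the ratios of dim spots towards 0 by construction. The values by the percentiles and the spike-ins follow from dividing by the brightness of the arrays. The mean over spots also leaves out the effective spot size, 0.6 at D0 and 0.760 at D12. For the others the cause was not tested. For miR-125a-5p minus miR-125a-3p (4.46), probes detected on both days gave 2.24, all probes 2.31, the mean over spots 2.24, scaled processed spot signals 2.24 and normexp 0.78. For miR-125b-5p minus miR-125a-5p (1.19), normexp gave 1.76. Ratios of spots at the same position, an alternative chosen after seeing the data, gave 1.15 for miR-125a-5p, 2.95 for miR-125b-5p, -1.02 for miR-125a-3p (-1.34 in the right side), and differences of 2.17 and 1.80.

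The D4/D0 ratio of miR-125a-3p (1.31 unscaled) turned negative with the 75th percentile (-0.78), the 90th percentile (-0.25), quantiles (-0.15) and processed spot signals scaled by the 75th percentile (-0.66), while the mean over spots without scaling stayed positive (0.95). Among 20 further log2 results, 132 of 260 values stayed within the technical error and 124 moved beyond it. The 4 named above turned, from a ratio above 2 to ratios below 1 but not below 0.5. The 132 include differences between members, in which a factor common to an array cancels, so some of these values could not move. Ratios not past the fold without scaling also changed sign, namely D16/D12 of miR-125b-5p and of miR-125a-3p, and the difference between miR-125b-5p and miR-125a-5p for D4/D0 and D16/D12. The count of miRNAs above 2 at D12 fell from 142 to 30 with the 75th percentile, 43 with the 90th, 38 with quantiles and 72 with the spike-ins, and that below 0.5 rose from 10 to 114, 61, 77 and 34. Over miRNAs above the median signal of the 283 miRNAs detected on all arrays, on at least 1 day, 102 were above 2 and 6 below 0.5, and miR-125a-3p was not among those counted, so its call was lost. Places among miRNAs and profile distances from the sums over all probes, and scaled calls of the lists, were also chosen after seeing the data. The signal over background limits miR-125a-3p at D12 and D16, where no spot was well above background. No paired analysis was possible because each day has 1 array.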
